A study of Rattus norvegicus with 13 samples.

Results

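Activity-dependent immediate early genes were described in the brains of old male rats whose mothers had been fed either control food or much fructose. The set consisted of 10 genes chosen by name, Fos, Fosb, Fosl2, Junb, Egr1, Egr2, Arc, Npas4, Nr4a1 and Dusp1. Of these, 9 had a probe set with only 1 gene symbol in the platform annotation, out of 14506 genes with such a probe set, and Fosb had none and is not analysed further. Fosl2 had 2 probe sets and each of the others 1, so that 10 of 15310 probe sets with a single gene were used. Values are log2 signals, on which a difference of 1 is a doubling, and each probe set was compared only with itself across arrays because probe sets differ in brightness for reasons other than transcript amount.

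The animals were Fischer F344 males, an inbred strain, and 15 months old when the brain was taken. The 7 control arrays came from offspring of mothers on control food and the 6 fructose arrays from offspring of mothers given the high fructose diet from day 1 of gestation through lactation. Both groups were weaned at day 20 onto the same chow, so the exposure ended more than a year before the tissue was taken. The RNA came from brain without the cerebellum, a mixture of regions and cell types, in which fewer cells of a type and less RNA per cell cannot be told apart. The labels do not say whether the arrays of a group came from separate animals or litters. Every p-value here sets a difference or correlation only against the scatter of these arrays, as if they were independent. That scatter may be technical, and if arrays share an animal or litter the p-values may be too small. Replicates keep the numbers of the labels, 1, 2, 3, 4, 5, 7 and 8 in control and 1, 2, 3, 4, 7 and 8 in fructose.

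Immediate early genes are transcribed within minutes of synaptic activity or of a growth factor signal, without a need for new protein. Calcium and kinase signals reach transcription factors already bound at their promoters, among them serum response factor at the serum response element and CREB at the cAMP response element. Most of the products are transcription factors that set off later waves of expression, while Arc acts at the synapse and Dusp1 ends the kinase signal. Their transcripts are short-lived, and in the brain they are widely used as marks of recent neuronal activity.

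Promoter sequences are shown for 5 of the genes, Egr2, Nr4a1, Dusp1, Junb and Fosl2, and how far their levels varied together is given below. Each line is the 250 bases before the annotated RefSeq start in GRCr8, 5′ to 3′ on the strand of the gene, with the letters found in a motif search in capitals. The table of promoter sequences used here matched 8 of the 10 genes, and Fos and Arc are named only.
Egr2: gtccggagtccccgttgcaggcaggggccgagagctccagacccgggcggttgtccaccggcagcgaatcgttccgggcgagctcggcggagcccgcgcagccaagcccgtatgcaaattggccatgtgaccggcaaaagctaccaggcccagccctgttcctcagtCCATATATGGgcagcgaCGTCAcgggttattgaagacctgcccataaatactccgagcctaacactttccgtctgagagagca
Nr4a1: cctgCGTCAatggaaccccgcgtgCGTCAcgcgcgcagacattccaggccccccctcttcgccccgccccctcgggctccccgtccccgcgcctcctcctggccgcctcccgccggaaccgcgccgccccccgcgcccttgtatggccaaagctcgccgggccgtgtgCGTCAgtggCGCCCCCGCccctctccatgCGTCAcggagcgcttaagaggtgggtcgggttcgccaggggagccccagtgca
Dusp1: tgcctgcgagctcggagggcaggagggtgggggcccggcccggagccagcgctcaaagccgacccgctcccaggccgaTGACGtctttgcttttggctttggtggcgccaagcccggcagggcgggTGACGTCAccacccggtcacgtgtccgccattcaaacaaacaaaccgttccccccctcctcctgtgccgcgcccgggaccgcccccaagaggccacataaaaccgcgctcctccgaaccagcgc
Junb: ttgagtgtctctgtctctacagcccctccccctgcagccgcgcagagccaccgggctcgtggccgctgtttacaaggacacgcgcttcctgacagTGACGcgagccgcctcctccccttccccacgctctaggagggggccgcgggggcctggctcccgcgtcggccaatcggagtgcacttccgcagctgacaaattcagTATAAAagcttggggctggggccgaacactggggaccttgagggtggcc
Fosl2: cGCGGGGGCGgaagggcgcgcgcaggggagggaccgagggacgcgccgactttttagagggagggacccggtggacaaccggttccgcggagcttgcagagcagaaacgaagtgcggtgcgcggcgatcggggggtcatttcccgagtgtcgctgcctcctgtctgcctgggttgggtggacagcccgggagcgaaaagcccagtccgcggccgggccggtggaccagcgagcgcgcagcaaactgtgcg

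The regions lie at chr20:21054442-21054691 (minus strand) for Egr2, chr7:134259888-134260137 (plus strand) for Nr4a1, chr10:17184603-17184852 (plus strand) for Dusp1, chr19:40080876-40081125 (plus strand) for Junb and chr6:30039270-30039519 (minus strand) for Fosl2. Both strands were searched for the serum response element, the full cAMP response element TGACGTCA and its core CGTCA (contained in the full element), the AP-1 site TGACTCA, the EGR sites GCGGGGGCG and GCGTGGGCG, and TATAAA. The Egr2 promoter held 1 serum response element 83 bases before the start and 1 CGTCA core 66 bases before it. The Egr1 promoter held 2 serum response elements, 105 and 83 bases before the start, and 2 cores. Nr4a1 had 4 cores and 1 GCGGGGGCG site. Dusp1 had the full element 124 bases before the start and another core 172 bases before it. Junb had 1 core and TATAAA 49 bases before the start. Fosl2 had 1 GCGGGGGCG site and no match to the other motifs in this window, and Npas4 had none at all. The Fosb promoter held TATAAA, on the other strand, 180 bases before the start and no other of these motifs. Among 27457 rat promoters of the same length, 1.5% held a serum response element, 1.7% the full cAMP response element, 19.0% the core, 3.98% the AP-1 site, 2.49% GCGGGGGCG, 0.514% GCGTGGGCG and 13.1% TATAAA. These matches describe letters and show neither binding nor a cause.

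Across the 15633 probe sets that name a gene, the median signal of an array lay between 7.99 and 8.07. Interquartile ranges were narrowest on control replicate 1 (2.19) and control replicate 2 (2.15) and lay from 2.26 to 2.50 on the other arrays. The neuron marker Snap25, a protein of the synaptic release machinery, was bright on all arrays, at 13.20 to 13.40, and lowest on control replicate 8 (13.20). Fructose replicate 4 (13.314) was level with the lowest of the other 11 arrays (13.315). Snap25 is only 1 of 15 neuron markers, and the mean of all 15 was lowest on control replicate 7 (11.37).

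For none of the 9 genes did the difference between the maternal diets pass the test. With limma, 0 of 15633 probe sets had an adjusted p under 0.05 (0.0% called), and 348 (2.23%) had an unadjusted p under 0.05, none of them a probe set of these genes. The fructose mean was the higher one for 4 of the 9 genes and the lower one for 5, and for 54.1% of all probe sets it was the higher one. Over all alternative settings tried, the smallest adjusted p of any of the 9 genes in limma was 0.9525, reached without control replicates 1 and 2. The median difference over the genes was -0.02 and that over all probe sets 0.01. Fructose and control values overlapped for all 9 genes, while 0.0384% of all probe sets had groups that did not overlap.

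**Figure D1:**
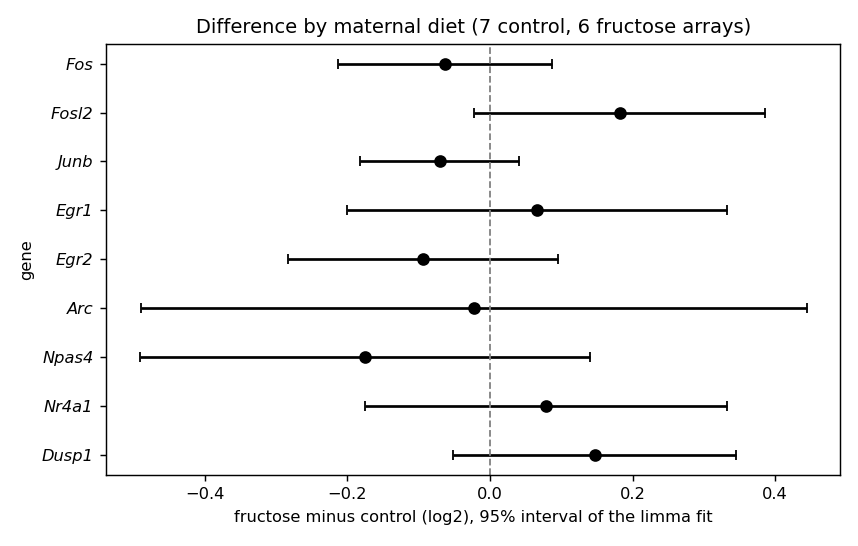
Difference in log2 signal between the fructose (6 arrays) and control (7 arrays) groups for each gene, with the 95% interval of the limma fit (bars) and a dashed line at no difference. Every interval crosses the line, and that of Arc is the widest, from -0.49 to 0.44.

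Among the AP-1 subunits, Fos, the founding member of its family, ran from 7.45 to 7.83 in control arrays (median 7.59) and from 7.37 to 7.71 in fructose arrays (median 7.56). The highest value was that of control replicate 7 and the lowest that of fructose replicate 4. The fructose mean of 7.56 ± 0.12 (SD, n = 6) stood 0.06 below the control mean of 7.62 ± 0.14 (SD, n = 7), and the 95% interval for this gap was -0.21 to 0.09. The difference was -0.02 without fructose replicate 4, -0.03 without control replicate 7 and -0.04 without control replicate 1.

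Junb, the Jun family partner that pairs with Fos proteins on DNA, ran from 8.83 to 9.13 in control arrays (median 8.99) and from 8.75 to 8.995 in fructose arrays (median 8.94). It was the steadiest of the genes, and again control replicate 7 was highest and fructose replicate 4 lowest. The difference was -0.07 ± 0.05 (SE; interval -0.18 to 0.04), and 1 of 6 fructose arrays lay above the control mean. It was -0.04 without fructose replicate 4 and -0.05 without control replicate 7.

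Fosl2, which encodes Fra-2, a Fos family protein without the strong activation domain of Fos, had the smallest unadjusted p of the set. Control arrays ran from 8.71 to 9.34 (median 9.01) and fructose arrays from 9.08 to 9.50 (median 9.12). All 6 fructose arrays lay above the control mean, but control replicates 2 and 3 lay within the fructose range. The difference was 0.18 ± 0.10 (SE; interval -0.02 to 0.39), a 1.13-fold higher mean, with an unadjusted p = 0.0770 and an adjusted p = 0.9998 in the limma fit. An exact 2-sided permutation test over the 1716 ways to part the arrays gave p = 0.12. Its other probe set differed by 0.17 ± 0.09 (SE) and followed the brighter one closely over the arrays (r = 0.9968), so both give a single measurement of the gene. The difference was 0.12 without fructose replicate 4, the highest array, and 0.09 without control replicate 8 and fructose replicate 4 together. It was 0.24 without control replicate 3, the highest control array.

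**Figure D2:**
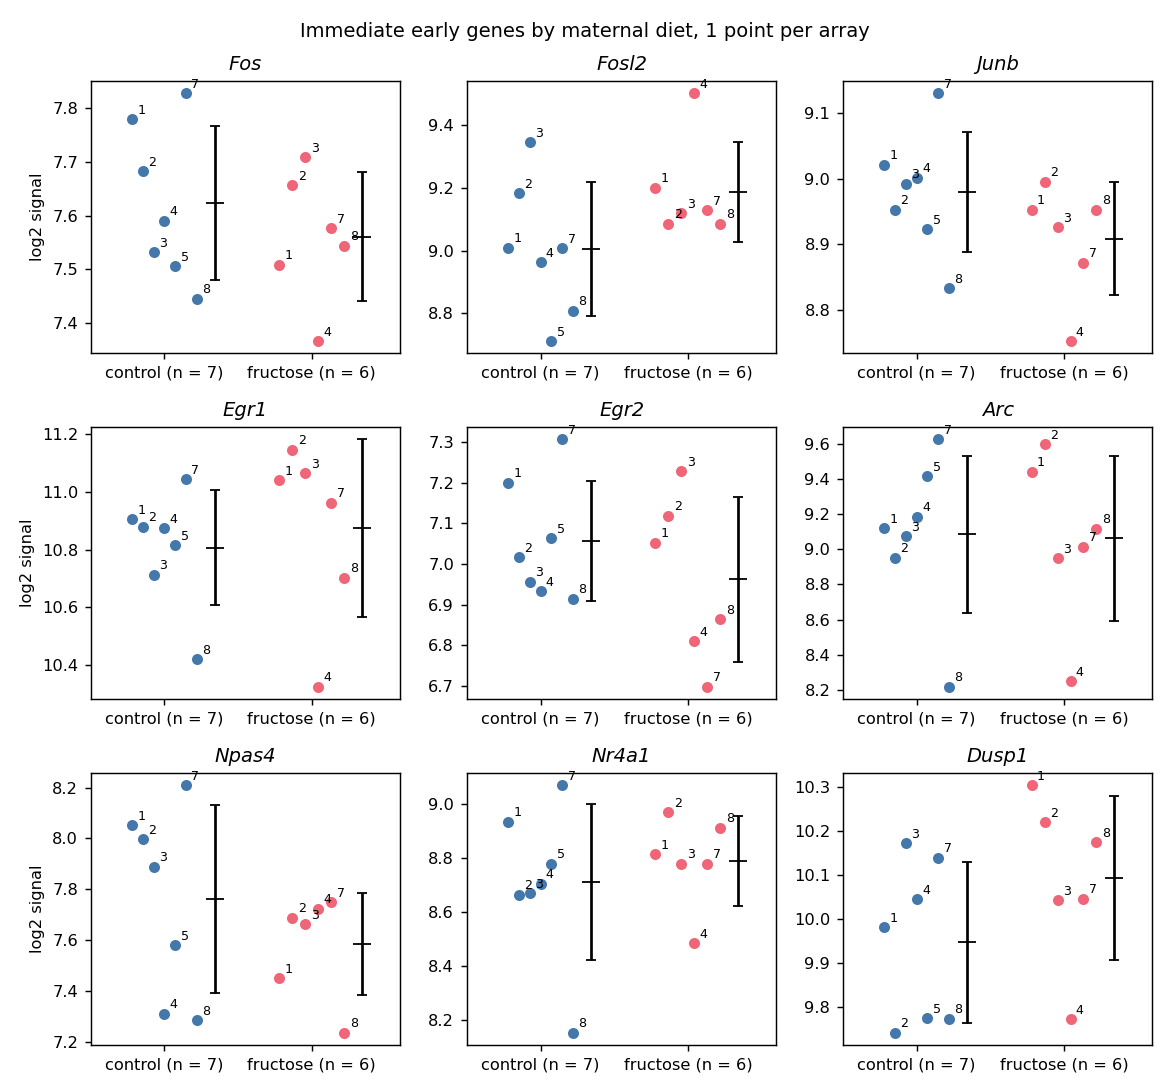
Log2 signal of the 9 genes on each array, control in blue (n = 7) and fructose in red (n = 6), with replicate numbers beside the points and the group mean ± SD as black bars. Axes differ between panels and do not start at 0. The groups overlap in every panel, and control replicate 8 and fructose replicate 4 are the lowest pair of arrays for Arc, Egr1, Junb, Fos and Nr4a1.

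The zinc finger factors of the EGR family differed little. Egr1, whose resting level in cortex and hippocampus is kept up by ordinary synaptic activity, ran from 10.42 to 11.04 in control arrays (median 10.88) and from 10.33 to 11.15 in fructose arrays (median 11.002). Control replicate 8 and fructose replicate 4 lay below all other arrays. The control mean was 10.81 ± 0.20 (SD, n = 7), the fructose mean 10.87 ± 0.31 (SD, n = 6), and the difference of 0.07 had an interval from -0.20 to 0.33. With single arrays left out it ran from 0.0018 without control replicate 8 to 0.18 without fructose replicate 4, and leaving out control replicate 7 or any of fructose replicates 1, 2, 3 and 8 also moved it by over 1.5 times.

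Egr2, also a regulator of myelination in peripheral nerve, ran from 6.91 to 7.31 in control arrays (median 7.02) and from 6.70 to 7.23 in fructose arrays (median 6.96). Fructose replicates 4, 7 and 8 lay below every control array, and the other 3 fructose arrays lay among the control arrays. The difference was -0.09 ± 0.09 (SE; interval -0.28 to 0.10). With single arrays left out it ran from -0.15 without fructose replicate 3 to -0.04 without fructose replicate 7, and it was -0.05 without control replicate 7.

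Npas4 and Nr4a1 stand for other classes of factor. Npas4, a bHLH-PAS factor of neurons that is induced by calcium entry and adjusts inhibitory synapses, ran from 7.29 to 8.21 in control arrays (median 7.89) and from 7.24 to 7.75 in fructose arrays (median 7.68). The control arrays spread over a wider range, with replicates 1, 2, 3 and 7 above all fructose arrays and replicates 4, 5 and 8 among them. The control mean was 7.76 ± 0.37 (SD, n = 7) and the fructose mean 7.59 ± 0.20 (SD, n = 6). No fructose array lay above the control mean, and the difference of -0.18 (interval -0.49 to 0.14) was -0.10 without control replicate 7, -0.11 without fructose replicate 8 and -0.07 without control replicates 1 and 2. It was -0.28 without control replicate 8 and fructose replicate 4 together.

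Nr4a1, the orphan nuclear receptor Nur77, ran from 8.15 to 9.07 in control arrays (median 8.70) and from 8.48 to 8.97 in fructose arrays (median 8.80). Control replicate 8 was far below the other control arrays and fructose replicate 4 was the next lowest of all. The difference was 0.08 ± 0.12 (SE; interval -0.17 to 0.33). It was -0.01 without control replicate 8, 0.04 without fructose replicate 2 and 0.14 without either control replicate 7 or fructose replicate 4.

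Arc, the postsynaptic protein that promotes removal of AMPA receptors from the membrane, varied most. It ran from 8.22 to 9.62 in control arrays (median 9.12) and from 8.25 to 9.60 in fructose arrays (median 9.07). Each group held 1 low array, control replicate 8 or fructose replicate 4, and all others lay at 8.95 or above. The means of 9.08 ± 0.44 (SD, n = 7) and 9.06 ± 0.47 (SD, n = 6) differed by -0.02, with an interval from -0.49 to 0.44, which as a fold is 0.71 to 1.36. The sign of so small a difference turned with the array left out, from -0.17 without control replicate 8 to 0.14 without fructose replicate 4.

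Dusp1, the nuclear phosphatase that inactivates MAP kinases and is also induced by glucocorticoids, ran from 9.74 to 10.17 in control arrays (median 9.98) and from 9.77 to 10.31 in fructose arrays (median 10.11). Control replicates 2, 5 and 8 and fructose replicate 4 formed the low end, and fructose replicates 1 and 2 were highest. The difference was 0.15 ± 0.09 (SE; interval -0.05 to 0.35), and 5 of 6 fructose arrays lay above the control mean. With single arrays left out it ran from 0.10 without fructose replicate 1 to 0.21 without fructose replicate 4.

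The spread between arrays of one group was larger for most of these genes than for most probe sets. The SD within groups of Arc, 0.46, was at the 99.1 percentile of the 15633 probe sets, that of Npas4, 0.30, at the 97.2, that of Egr1, 0.25, at the 95.3 and that of Nr4a1, 0.24, at the 94.4. Fosl2, Dusp1 and Egr2 lay between the 84.3 and 88.0 percentile. Fos, at 0.13, and Junb, at 0.09, were nearer the median SD of 0.11, at the 64.3 and 27.4 percentile. From the lowest to the highest array the signal of Arc differed 2.65-fold, that of Npas4 1.96-fold and that of Junb 1.30-fold, beside a median of 1.32-fold over all probe sets. The median SD percentile of the 9 genes was 87.7, and 78.5 without control replicate 8 and fructose replicate 4.

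Levels of most of the genes tended to vary together over the arrays. Over all 9 genes, r was positive in 29 of 36 pairs, and the median r over all gene pairs of the array was 0.01. Fosl2 was set apart on these same values, so the count for the other 8 genes, 27 of 28 pairs positive, is partly a product of that choice. Fosl2 had a median r of -0.19 with the other 8 genes, and of 0.225 without fructose replicate 4. The co-variation is described with the mean profile, the mean over the 9 genes of each value minus the mean of its gene. Control replicate 7 had the highest mean profile, 0.26, and was above the median array for each of the 8 genes other than Fosl2. It was the highest array for 6 genes, Fos, Junb, Egr2, Arc, Npas4 and Nr4a1. Control replicate 8 had the lowest, -0.35, and was below the median array for all 8. Fructose replicate 4 followed at -0.22 and was below the median for 7 of the 8, Npas4 being the exception, while it was the highest array for Fosl2. The remaining 10 arrays lay between -0.05 and 0.16.

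**Figure D3:**
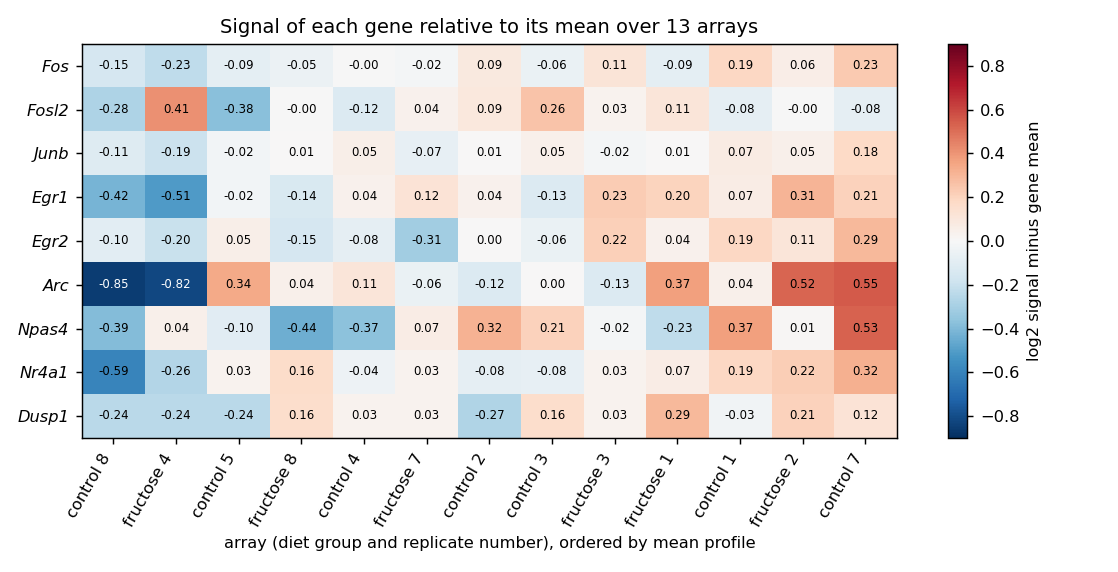
Log2 signal of each gene minus its mean over the 13 arrays (colour and printed value), with arrays ordered from the lowest to the highest mean profile. Control replicate 8 and fructose replicate 4 on the left are low for most genes, and control replicate 7 on the right is high for 8 of the 9 genes.

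Over the 36 pairs of genes the median Pearson r was 0.54, beside 0.01 over all pairs of the 14506 genes. An r of 0.5 or more was reached by 20 of the 36 pairs (55.6%), and by 10.3% of all gene pairs. An r of 0.7 or more was reached by 8 pairs (22.2%), and by 2.23% of all gene pairs. A 2-sided permutation test of each Pearson r with 100000 resamples, adjusted over the 36 pairs, put 11 pairs under 0.05. They joined Fos, Junb, Egr1, Egr2, Arc and Nr4a1, and none included Npas4, Dusp1 or Fosl2. Pairs share genes and are not independent, and with Spearman's rho 0 of the 36 passed after adjustment and 13 had an unadjusted permutation p under 0.05.

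Arc and Nr4a1 formed the closest pair, with r = 0.87 (permutation p = 0.00018, adjusted p = 0.00648) and rho = 0.80 (permutation p = 0.00172, adjusted p = 0.0619). Nr4a1 was the fifth most correlated of 14505 genes with Arc, and Arc ranked 4 for Nr4a1. Within the 7 control arrays r was 0.93 and within the 6 fructose arrays 0.91. Without the 2 arrays farthest from the median of Arc it was 0.65.

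Egr1 and Arc had r = 0.84 (permutation p = 0.00096, adjusted p = 0.00864) but rho = 0.54 (permutation p = 0.0599, adjusted p = 0.144), and r = 0.44 without the 2 arrays farthest from the median of Egr1. Junb and Arc had r = 0.81 (permutation p = 0.00085, adjusted p = 0.00864) and rho = 0.71 (permutation p = 0.00837, adjusted p = 0.0753), and r = 0.64 without the 2 arrays farthest from the median of Junb. Fos and Junb, the classic AP-1 pair, had r = 0.80 (permutation p = 0.00085, adjusted p = 0.00864) and rho = 0.73 (permutation p = 0.00638, adjusted p = 0.0753), and r = 0.54 without the 2 arrays farthest from the median of Fos. The other 7 called pairs had r from 0.69 to 0.78. Within the diet groups the lowest r among the 11 was 0.75 in control and 0.58 in fructose arrays, values that were not tested, from pairs picked on all 13 arrays and with 1 of the low arrays in each group.

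The size of these correlations depended on a few arrays, the low pair and the high control replicate 7 among them. Without control replicate 8 and fructose replicate 4 the median r over the 36 pairs was 0.39, all 11 pairs kept a positive r, from 0.16 (Junb and Egr1) to 0.69 (Fos and Egr2), and 0 passed, with a smallest adjusted p = 0.253 among them in the permutation test of 11 arrays. Leaving out fructose replicate 4 alone left 1 pair under 0.05, leaving out control replicate 7 alone 5, and leaving out control replicate 1 alone 6. With 1 array left out, the median r was lowest, 0.45, without control replicate 7.

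**Figure D4:**
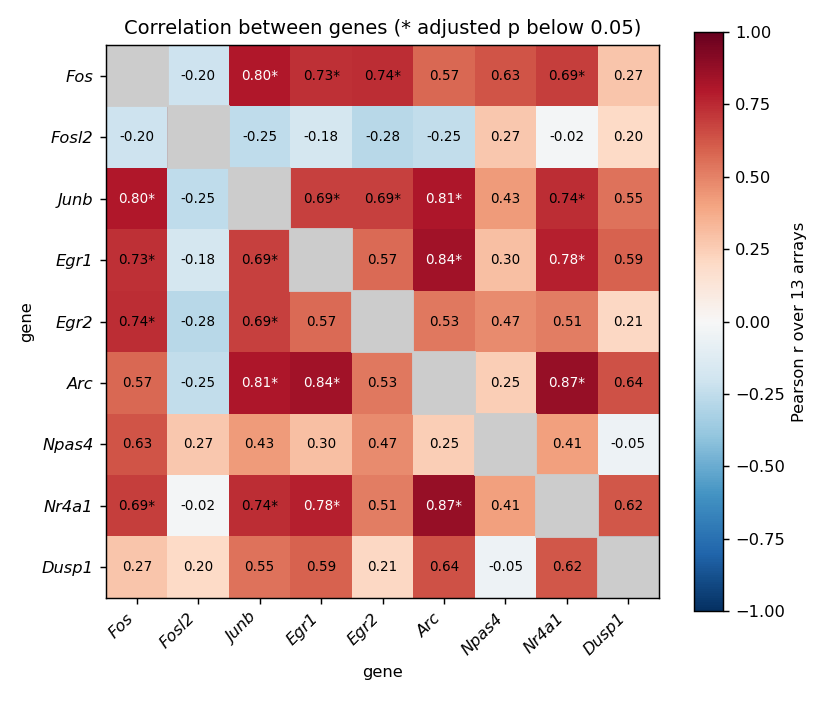
Pearson r over 13 arrays for each pair of genes (colour and printed value). Asterisks mark the 11 pairs with an adjusted permutation p under 0.05, which lie among Fos, Junb, Egr1, Egr2, Arc and Nr4a1, while the row of Fosl2 stays between -0.28 and 0.27.

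The remaining genes joined this pattern in part. Dusp1 had r = 0.64 with Arc (permutation p = 0.0175, adjusted p = 0.0526; rho = 0.64, permutation p = 0.0211) and r = 0.62 with Nr4a1 (permutation p = 0.0193, adjusted p = 0.0534; rho = 0.65, permutation p = 0.020), neither past the threshold. Npas4 was nearest to Fos, with r = 0.63 (permutation p = 0.0219, adjusted p = 0.0563; rho = 0.55, permutation p = 0.0527). Fosl2 had a median r of -0.19 with the other 8 genes, negative for 6 of them. This rested on fructose replicate 4, without which the median was 0.23, and it was -0.44 without control replicate 8.

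With the mean of the other members, Nr4a1 had r = 0.88, Junb 0.82, Egr1 0.81, Fos 0.76, Arc 0.75, Egr2 0.60, Dusp1 0.55, Npas4 0.42 and Fosl2 -0.09 over the 13 arrays, given as a description without a test. Outside the lists used here, the genes most like the mean profile were Or13a1 (r = 0.91), Or2aa1 (0.87), Grm6 (0.86), Rasl11a (0.85), Nin (0.84), Defb9 (0.82), Cyb561a3 (0.82), Lrrc8c (0.80), Or5g27 (0.80) and Abhd2 (0.80). The olfactory receptor genes among them were dim, at mean signals from 6.01 to 6.47, and all 10 were picked as the highest of a ranking of all genes outside the lists. For single genes the most similar were Arhgap32 for Egr1 (r = 0.91), Abhd2 for Arc (0.90), Rasl11a for Nr4a1 (0.90), Kif1a for Dusp1 (0.87), Dlgap5l2 for Junb (0.87), Ccrl2 for Fosl2 (0.86), Or52h2 for Fos (0.84), Defb44 for Npas4 (0.84) and Cenpi for Egr2 (0.84).

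Other genes of the activity response followed the profile in part and showed no diet difference past the threshold. Of 64 measured genes in 4 lists, 37 had the higher mean in the fructose group and 27 the lower, beside 54.1% of all probe sets higher. In the limma fit 0 passed over all probe sets and 1 had an unadjusted p under 0.05, beside 2.23% of all probe sets. An r of 0.5 or more with the mean profile was found for 12 of the 64 (18.8%), and for 5.13% of all genes outside the set.

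Among 22 other inducible transcription factors, 11 were higher and 11 lower, with a median difference of -0.003. Per1, a clock gene that also responds to activity and glucocorticoids, had r = 0.81 with the profile, Egr4 0.79, Egr3 0.66 and the repressor gene Bhlhe40 0.62. Egr3, a target of synaptic activity in the same family as Egr1, was at 8.70 on control replicate 8 and 8.71 on fructose replicate 4, and from 8.97 to 9.48 on the other 11 arrays. Egr4 was at 8.22 and 8.08 on that pair and from 8.26 to 8.48 elsewhere. Atf3, a stress-induced factor, differed by -0.12 ± 0.06 (SE) and Maff by 0.10 ± 0.05 (SE), the smallest unadjusted p-values of this list.

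Of 18 signalling and feedback genes, 9 were higher and 9 lower, with a median difference of -0.0006. Trib1 had r = 0.66 with the profile, the ERK phosphatase gene Dusp6 0.64, the kinase gene Sgk1 0.52 and Spry4, an inhibitor of growth factor signalling, 0.52. Dusp6 was at 8.55 and 8.56 on control replicate 8 and fructose replicate 4 and from 8.66 to 9.24 on the other arrays. Zfp36, whose protein speeds the decay of unstable transcripts, had the smallest unadjusted p, with a control mean of 8.04 ± 0.22 (SD, n = 7), a fructose mean of 8.28 ± 0.14 (SD, n = 6) and a difference of 0.24 ± 0.10 (SE; unadjusted p = 0.0246 and adjusted p = 0.9998 in the limma fit). The kinase gene Pim1 differed by 0.11 ± 0.05 (SE), and by 0.07 without fructose replicate 8.

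Of 12 synaptic and secreted products, 7 were higher and 5 lower, with a median difference of 0.01. Homer1, a postsynaptic scaffold gene with an activity-induced short form, had r = 0.73 and was at 9.53 and 9.64 on control replicate 8 and fructose replicate 4, against 9.88 to 10.42 on the others. Nptx1, a secreted pentraxin of excitatory synapses, had r = 0.56. Another 2 of the 12 had r of -0.5 or less, the median r of the list was 0.08 and its mean level had r = -0.06 with the profile. The mean level of the other inducible transcription factors had r = 0.73 with it, that of the signalling and feedback genes 0.76 and that of the upstream activators 0.12. Ptgs2, the inducible cyclooxygenase, differed by -0.19 ± 0.11 (SE) and Ccn2 by 0.12 ± 0.07 (SE). Without control replicate 5 these were -0.12 and 0.07, and Ccn2 was 0.08 without fructose replicate 4. In the other direction, Ptgs2 was -0.32 without control replicates 1 and 2, and Ccn2 was 0.15 without control replicate 3. Of 12 upstream activators, 10 were higher and 2 lower, beside 54.1% of all probe sets higher, with a median difference of 0.04. None of the 12 had an unadjusted p under 0.05 in the limma fit. Mef2d, a calcium-responsive factor, differed by 0.12 ± 0.06 (SE), by 0.08 without control replicates 1 and 2, and the acetyltransferase gene Crebbp by 0.06 ± 0.03 (SE), and the calcium-dependent kinase gene Camk4 had r = 0.50 with the profile.

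Some lists of region and cell type markers had their highest or lowest mean on 1 of the low arrays, and others did not. Single markers named below were picked for the size of their r with the profile. That choice favours extreme values on the low arrays, so those values are no separate support. The mean of 9 thalamus and brainstem markers ranged from 6.79 to 7.52 in control arrays and from 6.83 to 7.07 in fructose arrays. The highest of all was control replicate 8 (7.52), followed by fructose replicate 4 (7.07) and, close to it, control replicate 5 (7.02). The lowest was control replicate 7 (6.79), the array with the highest immediate early gene profile. Calb2, one of them, is also in the olfactory bulb list. Of these 9 markers, 5 had r of -0.5 or less with the profile, beside 7.09% of all genes. Their list mean had r = -0.86 with the profile, the largest in size of any list outside the set, and this was not tested. Slc17a6, the vesicular glutamate transporter of subcortical neurons, was at 9.15 on control replicate 8 and 8.04 on fructose replicate 4 and from 6.07 to 7.83 on the other 11 arrays. Lhx9 and Ddc of the same list were also highest on control replicate 8, at 7.89 and 6.76. On fructose replicate 4 they were at 7.23 and 6.57, the median of the other 11 arrays.

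The mean of 10 meninges and fibroblast markers ranged from 7.34 to 8.31 in control and from 7.43 to 8.43 in fructose arrays, and its highest values were again those of fructose replicate 4 (8.43) and control replicate 8 (8.31). It was also high, 8.04, on control replicate 7. Dcn, a matrix proteoglycan of fibroblasts, was at 10.99 and 9.82 on the low pair and from 7.96 to 8.95 on the others. The mean of 8 cortex and hippocampus markers was lowest on control replicate 8 (8.75) and highest on fructose replicate 4 (9.54), within ranges of 8.75 to 9.47 in control and 9.04 to 9.54 in fructose arrays, so the low pair lay at opposite ends. Fosl2 was low on the former array (8.81) and highest on the latter (9.50). Its lowest value (8.71) was on control replicate 5, where the cortex and hippocampus mean was 9.30. Over all arrays Fosl2 had r = 0.59 with the cortex and hippocampus mean. Its r with the olfactory bulb mean was larger in size, at -0.81, and neither r was tested.

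Astrocyte markers (11 measured) had list means from 10.18 to 10.64 in control and from 10.41 to 10.55 in fructose arrays. The highest was again control replicate 8 (10.64), followed by fructose replicate 4 (10.55). Of the 11 markers, 3 had r of -0.5 or less with the profile, beside 7.09% of all genes, and the list mean had r = -0.60 (not tested). The mean of 15 neuron markers ranged from 11.37 to 11.53 in control and from 11.40 to 11.55 in fructose arrays. It was 11.41 on control replicate 8 and 11.40 on fructose replicate 4, and lowest, at 11.37, on control replicate 7, where the immediate early genes were highest. Single neuron markers went different ways, and 2 of the 15 had r of 0.5 or more with the profile. Snap25 had r = 0.77 with the profile. Rbfox3, the gene of the nuclear antigen NeuN, had r = 0.63 and was at 10.86 on control replicate 8, below the 10.93 to 11.37 of the 11 arrays outside the low pair, and at 10.99 on fructose replicate 4. The synaptic vesicle gene Syp had r = -0.42. Striatum, microglia and endothelial list means were highest on control replicate 8, at 8.78, 8.75 and 8.78. No list for olfactory bulb, oligodendrocytes, choroid plexus or blood had its highest or lowest mean on control replicate 8 or fructose replicate 4. The part of regional or cellular make-up in the co-variation of the immediate early genes was not tested.

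**Figure D5:**
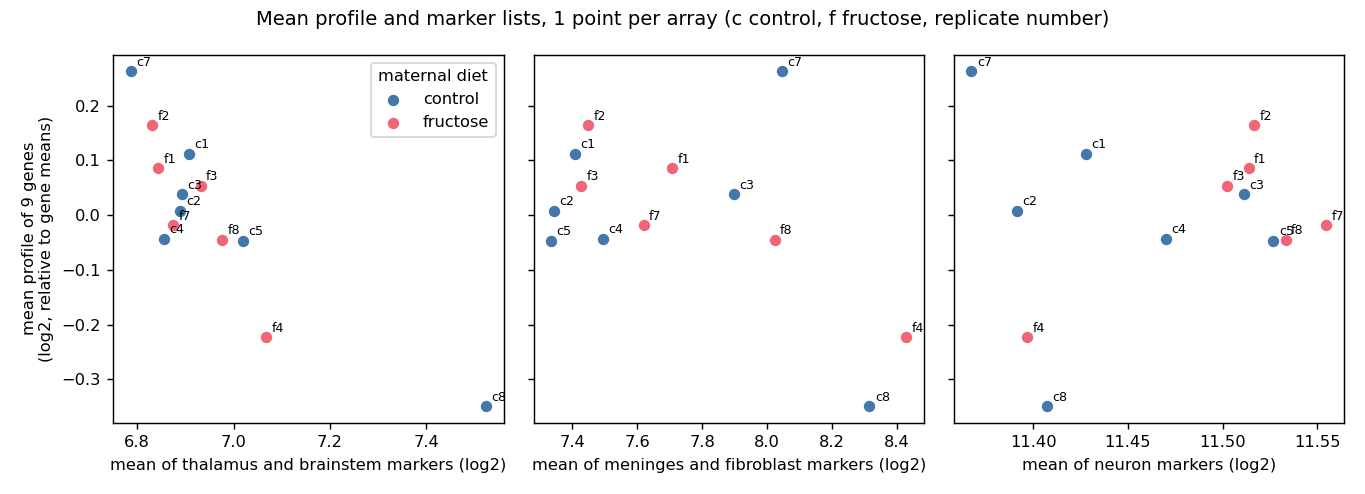
Mean profile of the 9 genes (log2, relative to gene means) against the mean log2 signal of thalamus and brainstem, meninges and fibroblast, and neuron markers, with 1 point for each array (blue c for control, red f for fructose, with the replicate number). The arrays lowest in the profile, c8 and f4, are the highest for thalamus and brainstem and for meninges and fibroblast markers, and c7 is the highest in the profile and the lowest for thalamus and brainstem and for neuron markers.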

How the data were processed

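The log2 signals were deposited by the authors as 1 table of 29214 probe sets and 13 arrays (Affymetrix rat gene array). Per the submitters' processing notes, RMA and R 3.0.1 were used, and per the labels' protocols 100 ng of RNA was labelled for each array. No detection value came with the table, so how far a dim probe set lies above background is not known here. Precision is limited by how many arrays there are.

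The platform annotation gave 1 gene to 15310 probe sets, several to 323 and none to 13581. The Entrez identifiers of all 10 probe sets used here were found in the RefSeq gene table of GRCr8. For a gene with more probe sets the one with the highest mean was used, and the other is reported beside it.

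The 15633 probe sets with a gene were fitted in R 4.3.3 by limma 3.58.1, as fructose minus control with moderated variances, no covariate and no filter, with Benjamini-Hochberg adjustment over all of them and a threshold of 0.05. Correlations, permutation tests (100000 resamples; exact over 1716 splits for differences), spread and promoter letters were computed in Python 3.11.15 with numpy 2.4.6. Scripts were tested on simulated data. Same-numbered arrays of the groups deviated together (correlation over 0.1) in 1 of 6 pairs, so the numbers were not taken as pairs.

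The genes and lists were chosen with earlier results of these data known. The text names all probe sets of the set, the 2 genes of each list of the activity response with the smallest unadjusted p (the rule allowed up to 4, and was narrowed after values were seen), up to 4 with the highest r of at least 0.5 with the mean profile, the 10 genes most like that profile outside the lists, the most similar gene for each member, and up to 3 genes of a marker list. The marker genes were those with the r largest in size with the mean profile. The alternatives were renewed normalization, centring, a filter on the 30% dimmest probe sets, all probe sets, array weights, another prior, arrays left out and a replicate block.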

Additional observations from a re-analysis of the deposited data

Results flagged for a closer look

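Fosl2 on fructose replicate 4 lay far from the other fructose arrays. The brighter probe set was at 9.50 there with the next fructose array at 9.20, a gap of 0.72 of the range of the group, and the other probe set was at 9.32 with the next at 9.03, a gap of 0.77 of the range (limit 0.625 for 6 arrays by Dixon's test). Both probe sets measure the same gene, and chance flags about 1 in 20 groups, of which 20 were examined. On the same array Fos, Junb and Egr1 had their lowest value of all 13 arrays.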

How the results depend on the processing

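In each of the 23 alternatives 0 of the 9 genes passed for diet, and the number of genes higher in the fructose group stayed between 3 and 5. The 64 other genes of the activity response had 32 to 44 higher. Under the replicate block, which has no partner for control replicate 5, 0 probe sets passed, 5 of the 9 genes were higher, and Arc was 0.0327, Egr4 -0.0012 and Dusp6 0.0465. Only 1 of 6 numbered pairs correlated over 0.1 and 0 control arrays were closest to their own number, so the numbers are not taken to pair samples. Array weights turned Arc to 0.0735 and Bhlhe40 to 0.0245, and Homer1 was -0.0081 after quantile normalization and -0.0083 after cyclic loess. Without control replicate 8 and fructose replicate 4 together, an alternative chosen after seeing the data, Bhlhe40 was 0.0570, Dusp6 0.0069 and Nptx1 0.0078. That setting also gave 0 called pairs, a median r of 0.3862 and a median SD percentile of 78.547. Without control replicates 1 and 2 there were 6 called pairs. With 1 array left out, the differences that turned sign ranged from -0.1664 to 0.1394 for Arc, -0.0143 to 0.1395 for Nr4a1, -0.0248 to 0.0722 for Per1, -0.0119 to 0.0635 for Egr4, -0.1146 to 0.0848 for Bhlhe40, -0.068 to 0.0706 for Dusp6, -0.0017 to 0.0495 for Spry4, -0.0738 to 0.0957 for Homer1, -0.071 to 0.031 for Nptx1 and -0.0454 to 0.1357 for Camk4. With 1 array left out the called pairs numbered 1 to 15, the median r was 0.4478 to 0.5979 and the median SD percentile 84.413 to 89.908. Renewed normalization, centring or removed group means gave 13 to 15 called pairs. Leaving out the 30% dimmest probe sets gave no value for Egr2 and Atf3. The causes were not tested.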
